A study of Rattus norvegicus with 4 samples.

Results

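The genes described here are 33 rat genes of the interferon response and of antigen presentation, chosen by name with earlier results of these data known. They comprise 6 interferon signalling factors, 15 antiviral effectors, 1 chemokine and 11 genes of the immunoproteasome and of peptide presentation. Array probes were assigned to them through the accession each probe carries, which gave 31 genes a probe. A gene counted as measured when 1 of its probes was well above the local background on at least 3 of 4 arrays in either treatment, and its brightest such probe was used. This held for 27 of the 33 genes, among 9295 named genes measured in all. Probes for Ifit1, Mx1 and Oasl were not well above background on any array in either channel, and the Ifit3 probe was so on 2 of 4 arrays in each channel. No probe matched Irf8 or Nlrc5.

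Interferons are secreted alarm proteins that act through surface receptors, Janus kinases and STAT factors to switch on a large set of genes. Some of these genes encode proteins that block virus entry, translation or release. Others remodel the proteasome and load its peptides onto MHC molecules for display to T cells. In brain such genes are held at a low tonic level and respond in microglia, endothelium, border macrophages and astrocytes. Thyroid hormone acts through nuclear receptors found in neurons and glia. The roles given below for single genes come mainly from work on human and mouse cells.

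The T3 group was 4 male Sprague Dawley rats given an injection of T3 (triiodothyronine, the receptor-active form of thyroid hormone) at 25 ug per 100 g body weight, and the saline group was 4 such rats injected with saline. All 8 had been made hypothyroid with 0.025% methimazole (MMI) in the drinking water for 22 days, were injected on day 21 and were killed 24 h later, at 10 weeks of age. The saline rats were therefore hypothyroid animals, and rats with normal thyroid function were not analysed here. Tissue was a block of hypothalamus from bregma -2.12 to -4.52 mm, and each of the 4 two-colour arrays held RNA of 1 T3 rat and 1 saline rat, with the T3 rat in Cy5 on arrays 1 and 3 and the saline rat in Cy5 on arrays 2 and 4.

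All 4 arrays lay on 1 slide read in 1 scan. The share of spots well above background ran from 48.6% to 66.9% for the T3 rats and from 50.8% to 62.4% for the saline rats, with the T3 minimum on array 4. Markers of hypothalamic nuclei were measured for 13 of 14 genes and neuronal markers for 11 of 12, while 11 of the 16 lymphocyte markers had probes below the background rule and 3 were measured. The values below are log2 ratios of T3 over saline within 1 array, so a value below 0 means less signal in the T3 rat of that pair. In a block of mixed tissue, fewer cells of a type and less RNA per cell cannot be told apart. The number of arrays limits the precision.

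None of the 27 genes passed the test for a T3 effect, but their ratios lay mostly below 0 and differed between pairs of rats. Irf7, Psmb9, Tap1, Cxcl10 and Gbp2 had a ratio below 0 on all 4 arrays, and Ifitm3 alone had one above 0 on all 4. The other 21 genes had mixed signs. Means ranged from -0.63 for Rsad2 to 0.50 for Ifi27. On arrays 1, 2 and 3 most of the genes were below 0, and on array 4 most were above 0.

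In limma over all 23148 kept probes, 0 of the 27 genes had an adjusted p under 0.05, with adjusted p of 0.230 at the lowest and 0.999 at the highest, and 0.0994% of all kept probes passed. At an unadjusted p under 0.05 in limma, 8 of the 27 were lower with T3 (29.6%, against 3.93% of all named genes). In the higher direction 1 of the 27 passed that mark, against 5.36% of all named genes. Because the genes were chosen with earlier results of these data known, the shares here and below are descriptions and not tests. In both directions together, the genes at that mark numbered 9, and they numbered 5 to 10 when single arrays were left out, and 0 when arrays were centred on their median in place of loess. There was 1 with the authors' deposited values.

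A ratio below 0 on all 4 arrays was seen for 5 of the 27 genes, 18.5%, against 8.01% of named genes with a value on every array. The same count above 0 was 1 of 27, against 9.72%. Among the 5 genes below 0 on every array, Gbp2 was near background in both channels on array 4. The mean was below 0 for 20 of the 27 genes, 74.1%, against 48% of all named genes. The median of the 27 means was -0.082, against 0.0044 for all named genes. That median was -0.160 without array 4 and 0.033 with the authors' deposited values, in which 13 of 27 genes had a mean below 0. Ifih1, the gene at the median of -0.082, passed the background rule in the saline channel alone. A filter on all 4 arrays of a channel left 23 genes, with a median of -0.077. Of these 23, 16 had a mean below 0. The 27 genes were also more spread between pairs: their median SD over the 4 arrays was 0.250, against 0.157 for all named genes, and 24 of the 27 had an SD above that of the typical named gene. For 18 of the 27, limma's 95% interval of the mean ran across 0. The sign of the mean was the same under every alternative run for 15 genes and turned under at least 1 of them for 12. The genes that turned were Stat2, Irf1, Irf9, Oas1a, Isg20, Ifih1, Cxcl10, Psmb8, Psme1, Tap2, B2m and Cd74.

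**Figure D1:**
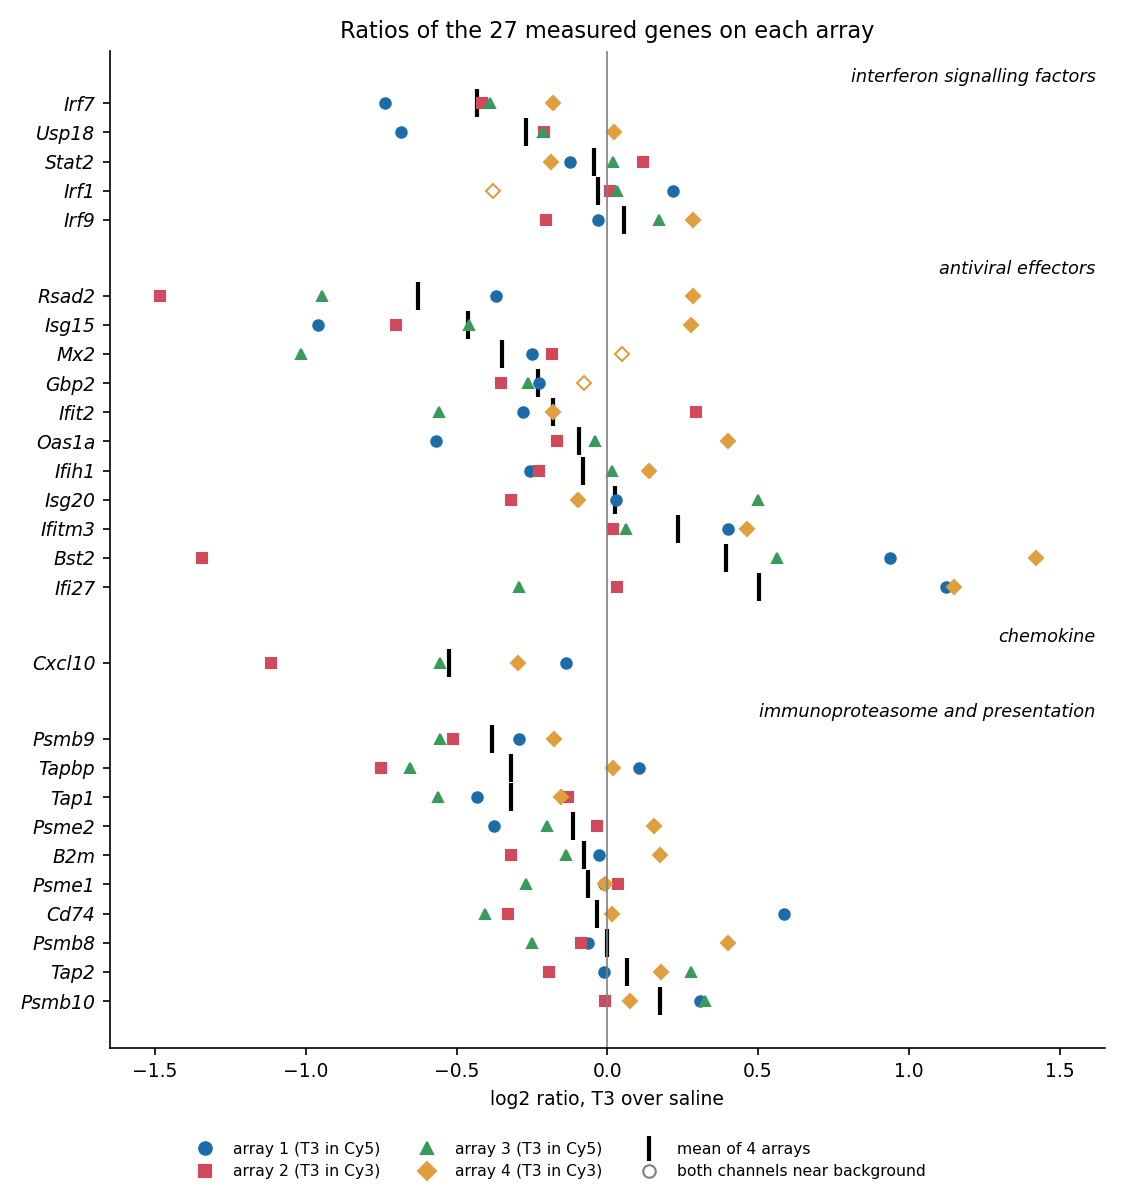
Each row is 1 of the 27 measured genes, grouped by role, and the horizontal axis is the log2 ratio of T3 over saline. Each symbol is 1 array, which is 1 pair of rats, the black bar is the mean of the 4 arrays, and open symbols mark spots near background in both channels. The gold diamonds of array 4 lie at the right end of 16 rows, and Rsad2 on array 2 has the lowest ratio, -1.48.

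Many of the promoters of these genes hold a DNA element tied to interferon control. The genes were chosen for their part in the interferon response, so its frequency among them is not independent of that choice. Interferon-stimulated response elements (ISRE) are bound by interferon regulatory factors. The core GAAANNGAAA, or TTTCNNTTTC where the element lies on the other strand, was searched in promoters of 300 bases, from 250 before to 50 after the annotated start, taken from RefSeq on build GRCr8. Of the 33 genes, 27 had such a promoter, and 18 of these held a match, against 3.92% of 33469 promoters in the table. Psmb9, with a mean ratio of -0.38, had a promoter and no match. Isg15, Mx2 and Usp18, with means of -0.46, -0.35 and -0.27, had no such promoter. The windows below are from genes with a match, chosen among those with the lowest or highest ratios. They read 5′ to 3′ on the strand of the gene, with the core in capitals.
Irf7, minus strand, chr1:205800073-205800102: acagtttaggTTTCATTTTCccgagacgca
Rsad2, minus strand, chr6:48788248-48788277: ctggttcaacTTTCATTTTCagaaaacaga
Gbp2, plus strand, chr2:234005686-234005715: agttttttagTTTCACTTTCattgtcttaa
Cxcl10, plus strand, chr14:15988816-15988842: cgctttgGAAAGTGAAActtaactcac
Tap1, minus strand, chr20:4668645-4668674: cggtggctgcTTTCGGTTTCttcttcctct
Tapbp, minus strand, chr20:4967878-4967913: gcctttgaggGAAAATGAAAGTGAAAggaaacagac
Ifitm3, minus strand, chr1:205541783-205541812: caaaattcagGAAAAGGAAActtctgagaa
Bst2, minus strand, chr16:18255073-18255108: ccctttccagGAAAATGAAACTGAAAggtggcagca
Ifi27, distal, plus strand, chr6:128355133-128355162: gagagcagggGAAAAGGAAAcctctccttg
Ifi27, proximal, plus strand, chr6:128355218-128355247: gagagctgggGAAATGGAAActtacctcat
The Cxcl10 window is shorter because its core lies near the edge of the promoter. Tapbp and Bst2 each held a pair of overlapping cores. A match is a description of the letters in the window and not evidence of binding.

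Among the interferon signalling factors, 4 of the 5 measured genes had a mean below 0. Irf7, the transcription factor that amplifies type I interferon production, had log2 ratios of -0.74, -0.42, -0.39 and -0.18 on arrays 1 to 4. Its log2 brightness was 9.24, 9.88, 10.00 and 10.17 in the T3 rats of arrays 1 to 4, against 9.98, 10.30, 10.39 and 10.35 in the saline rats. Every T3 rat was dimmer than the saline rat on its own array, while the ranges of the 2 groups overlapped. The mean ratio was -0.43 ± 0.23 (SD, n = 4), a 0.74-fold level with T3, with a limma 95% interval from -0.66 to -0.20 and adjusted p = 0.231. Usp18, which strips Isg15 from proteins and dampens the type I receptor, had a mean of -0.27 ± 0.30 and was below 0 on 3 of 4 arrays. Its limma adjusted p was 0.608. Without array 1 the Usp18 mean was -0.13.

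The remaining factors lay near 0. Stat2 and Irf9, which act together at ISRE sequences, had means of -0.044 ± 0.14 and 0.056 ± 0.22, each below 0 on 2 of 4 arrays. Irf1, a factor induced mainly by interferon gamma, had a mean of -0.030 ± 0.25 and was below 0 on 1 of 4 arrays, array 4, where its spot was near background in both channels. Its mean was 0.086 ± 0.11 over the other 3 arrays.

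The 11 measured antiviral effectors held both the lowest and the highest means of the list, with 7 below 0 and 4 above. Rsad2 (viperin), an enzyme that makes a chain terminator of viral RNA synthesis, had ratios of -0.37, -1.48, -0.95 and 0.28 on arrays 1 to 4. Its log2 brightness was 8.37, 8.47, 8.09 and 9.19 in the T3 rats, against 8.74, 9.95, 9.04 and 8.91 in the saline rats. The brightest saline rat was on array 2, and on array 4 the T3 rat was the brighter of its pair. The mean was -0.63 ± 0.76 (SD, n = 4), with a limma adjusted p = 0.576. It was -0.34 without array 2 and -0.93 without array 4.

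Isg15, a ubiquitin-like protein joined to other proteins after interferon, had ratios of -0.96, -0.70, -0.46 and 0.28. Its log2 brightness was 9.23, 10.17, 10.09 and 10.41 in the T3 rats, against 10.19, 10.87, 10.55 and 10.13 in the saline rats. As with Rsad2, the T3 rat was dimmer on arrays 1, 2 and 3 and brighter on array 4. The mean was -0.46 ± 0.53, with a limma adjusted p = 0.574. It was -0.29 without array 1 and -0.71 without array 4, with limma adjusted p of 0.934 and 0.249.

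Gbp2, an interferon-induced guanylate-binding GTPase, had ratios of -0.23, -0.35, -0.26 and -0.08. The mean was -0.23 ± 0.11, with a limma adjusted p = 0.449. Its spot on array 4 was near background in both channels, at 6.68 for T3 and 6.76 for saline on the log2 scale, against 10.27 to 11.15 on the other arrays. Over those other arrays the mean was -0.28 ± 0.065 (SD, n = 3). Mx2, a dynamin-like antiviral GTPase, had a mean of -0.35 ± 0.46 and was below 0 on 3 of 4 arrays. It too was near background on array 4, and the other 3 arrays had a mean of -0.48 ± 0.46. Array 3, at -1.01, carried most of the Mx2 mean, which was -0.13 without it.

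Ifit2, which binds RNA and restrains translation, had a mean of -0.18 ± 0.36 and was below 0 on 3 of 4 arrays. Oas1a, an oligoadenylate synthetase that signals to RNase L, had a mean of -0.094 ± 0.40 with 3 of 4 arrays below 0. Ifih1, the double-stranded RNA sensor MDA5, had a mean of -0.082 ± 0.19 with 2 of 4 below 0. Its probe was well above background on 2 of 4 arrays in the T3 channel and on 3 of 4 in the saline channel. Isg20, an exonuclease that degrades viral RNA, had a mean of 0.027 ± 0.35 with 2 of 4 below 0.

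Ifitm3, Bst2 and Ifi27 had the highest means. Ifitm3, a membrane protein that blocks fusion of viruses in endosomes, had ratios of 0.40, 0.02, 0.06 and 0.46 on arrays 1 to 4. Its mean was 0.24 ± 0.23, with a limma adjusted p = 0.595. Arrays 1 and 4 carried this mean, and arrays 2 and 3 were close to 0.

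Bst2 (tetherin), which holds budding virus at the cell surface, had ratios of 0.94, -1.34, 0.56 and 1.42, the widest range of the 27 genes. Its second measured probe gave 0.88, -1.38, 0.44 and 1.25 on the same arrays. The mean of the brighter probe was 0.39 ± 1.21, with a limma adjusted p = 0.895. It was 0.97 without array 2, with a limma adjusted p = 0.074, but 0.21 without array 1 and 0.052 without array 4. Ifi27, a small interferon-induced membrane protein, had ratios of 1.12, 0.03, -0.29 and 1.15 with a mean of 0.50 ± 0.74 and a limma adjusted p of 0.676. That mean was 0.30 without array 1, 0.77 without array 3 and 0.29 without array 4.

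Cxcl10 was the 1 chemokine of the list, a secreted ligand that draws T cells through Cxcr3. Its ratios were -0.14, -1.11, -0.55 and -0.29 on arrays 1 to 4. The log2 brightness was 7.90, 7.98, 8.14 and 7.94 in the T3 rats, against 8.04, 9.10, 8.69 and 8.23 in the saline rats. The T3 rats lay close together and the saline rats were spread, with the highest on array 2. The mean was -0.52 ± 0.43, a 0.70-fold level with T3, with a limma adjusted p = 0.362. Without array 2 it was -0.33, and with the authors' deposited values it was 0.074.

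**Figure D2:**
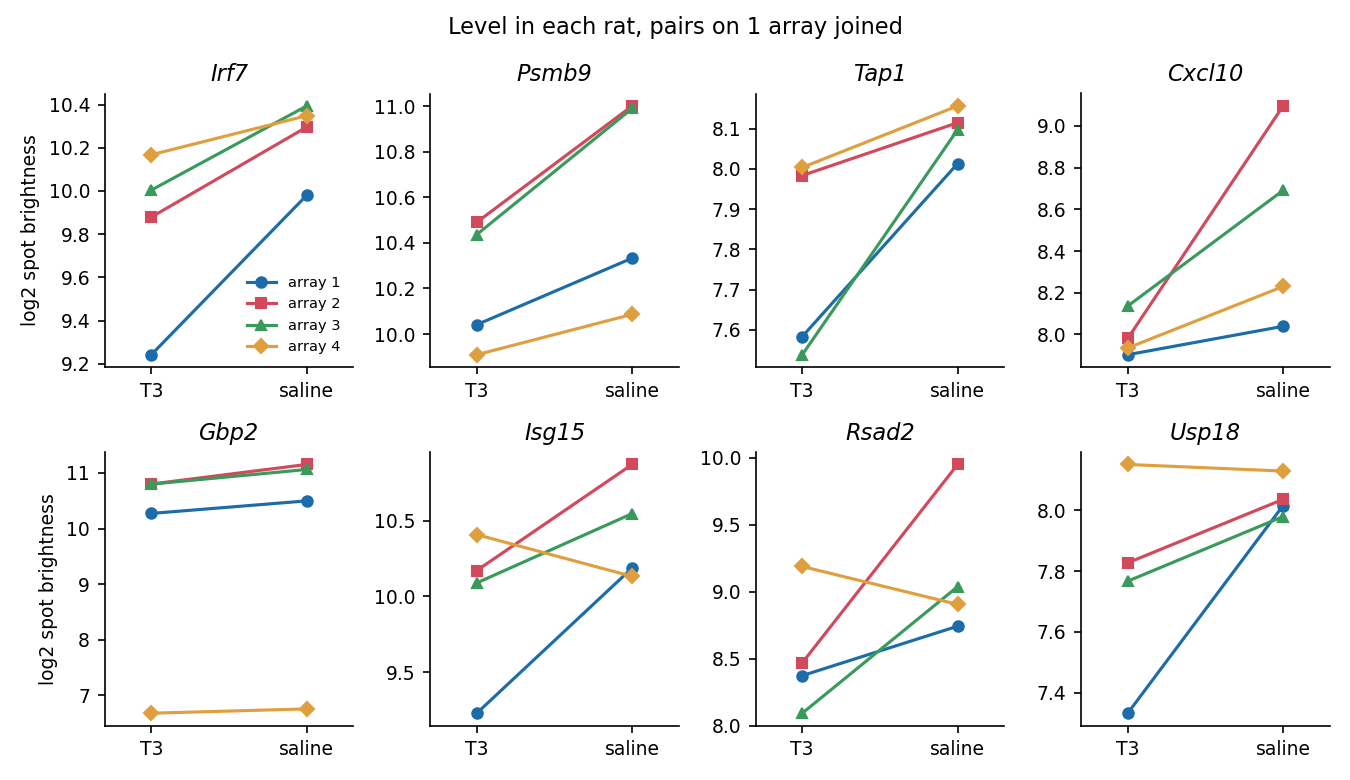
Each panel is 1 gene, the vertical axis is log2 spot brightness (each panel has its own scale), T3 rats are at left and saline rats at right, and a line joins the 2 rats of 1 array. The lines of Irf7, Psmb9, Tap1, Cxcl10 and Gbp2 all slope up toward saline, and those of Isg15, Rsad2 and Usp18 do so on arrays 1 to 3 and slope down on array 4. Gbp2 on array 4 was near background in both channels. The panels are the 8 genes that were lower with T3 at an unadjusted limma p under 0.05. Ifitm3, the 1 gene higher with T3 at that mark, is not shown.

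Of the 10 measured genes of the immunoproteasome and presentation, 8 had a mean below 0. Interferon replaces the catalytic subunits of the standard proteasome with Psmb8, Psmb9 and Psmb10. Psmb9 had ratios of -0.29, -0.51, -0.55 and -0.18 on arrays 1 to 4. Its log2 brightness was 10.04, 10.49, 10.44 and 9.91 in the T3 rats, against 10.33, 11.00, 10.99 and 10.09 in the saline rats. The T3 rat was the dimmer of each pair, while the ranges of the groups overlapped. The mean was -0.38 ± 0.18 (SD, n = 4), a 0.77-fold level with T3, with a limma 95% interval from -0.59 to -0.18 and adjusted p = 0.230, the lowest of the 27.

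The other catalytic subunits had means close to 0 or above it. Psmb8 had ratios of -0.06, -0.09, -0.25 and 0.40, with a mean of -0.00059 ± 0.28. Psmb10 had ratios of 0.31, -0.01, 0.32 and 0.07, with a mean of 0.17 ± 0.17. The limma intervals of the mean were -0.26 to 0.26 for Psmb8 and -0.022 to 0.37 for Psmb10, both across 0. Differences between the 3 subunits were not tested.

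Psme1 and Psme2 encode the subunits of a cap that opens the proteasome. Psme1 had ratios of -0.01, 0.04, -0.27 and -0.01, so array 3 alone was apart from 0. Psme2 had ratios of -0.37, -0.03, -0.20 and 0.15 and a mean of -0.11 ± 0.23. The Psme1 mean was -0.063 ± 0.14.

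Tap1 and Tap2 form the pump that carries peptides into the endoplasmic reticulum, and Tapbp (tapasin) bridges it to class I molecules. Tap1 had ratios of -0.43, -0.13, -0.56 and -0.15. Its log2 brightness was 7.58, 7.98, 7.54 and 8.00 in the T3 rats, against 8.01, 8.12, 8.10 and 8.16 in the saline rats. The brightest T3 rat lay just below the dimmest saline rat, so the groups did not overlap, but by a narrow margin. The mean was -0.32 ± 0.21, a 0.80-fold level with T3, with a limma adjusted p = 0.375.

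Tap2, the partner of Tap1, had ratios of -0.01, -0.19, 0.28 and 0.18 with a mean of 0.064 ± 0.21. Tapbp had ratios of 0.11, -0.75, -0.65 and 0.02, so the same mean as Tap1, -0.32 ± 0.44, came from arrays 2 and 3 alone. B2m, the light chain of class I molecules, had ratios of -0.03, -0.32, -0.14 and 0.17 with a mean of -0.077 ± 0.21. Its second measured probe gave -0.08, -0.30, -0.13 and 0.28. Cd74, the invariant chain that chaperones class II molecules, had ratios of 0.59, -0.33, -0.41 and 0.02 with a mean of -0.033 ± 0.45. It was above 0 on array 1, below 0 on arrays 2 and 3 and near 0 on array 4.

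Psmb9 and Tap1 are neighbours on chromosome 20 that point away from each other. Their annotated starts were 457 bases apart on GRCr8, and their promoter windows overlapped by 44 bases. Both are shown because these 2 genes were among the 5 with a ratio below 0 on every array.
Tap1, minus strand, chr20:4668494-4668793: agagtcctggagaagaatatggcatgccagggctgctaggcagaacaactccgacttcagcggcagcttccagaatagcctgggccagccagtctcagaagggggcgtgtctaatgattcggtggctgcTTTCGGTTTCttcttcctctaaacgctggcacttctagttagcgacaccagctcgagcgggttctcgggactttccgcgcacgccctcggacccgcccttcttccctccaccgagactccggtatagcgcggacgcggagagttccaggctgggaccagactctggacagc
Psmb9, plus strand, chr20:4668750-4669049: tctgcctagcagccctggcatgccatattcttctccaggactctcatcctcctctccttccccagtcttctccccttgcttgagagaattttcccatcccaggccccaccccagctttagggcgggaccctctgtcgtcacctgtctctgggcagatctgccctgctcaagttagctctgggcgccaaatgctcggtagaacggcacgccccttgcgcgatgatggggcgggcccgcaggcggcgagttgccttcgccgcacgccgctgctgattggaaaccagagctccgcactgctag
Capitals mark the ISRE core, whose first base lies at position -121 from the Tap1 start. The letters of the core are not in the Psmb9 window.

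The pairs of rats did not share the shift equally. The median ratio of the 27 genes was -0.125 on array 1, -0.203 on array 2, -0.251 on array 3 and 0.049 on array 4. For all named genes the medians on arrays 1 to 4 were 0.017, -0.0066, 0.020 and -0.0070. On arrays 1 to 4, 19, 21, 18 and 10 of the 27 genes were below 0, or 70.4%, 77.8%, 66.7% and 37.0%. Of all named genes, 46.8%, 51.4%, 45.8% and 51.4% were below 0 on these arrays. For the list as a whole, arrays 1, 2 and 3 thus carried the shift, and array 4 did not.

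The pairs also differed in which genes were lowest. Array 1 gave the lowest ratio of Irf7, Usp18, Isg15, Oas1a, Ifih1 and Psme2. Array 2 gave the lowest ratio in 11 genes, with Rsad2, Bst2 and Cxcl10 below -1 on the log2 scale, and array 3 in 8 genes, with Mx2 at -1.01. Array 4 gave the highest ratio in 16 of the 27 genes, 59.3%, against 22.7% of all named genes, and the lowest in 2. The 16 include Gbp2 and Mx2, and the 2 include Irf1, all near background in both channels on that array. The antiviral effectors had medians of -0.25, -0.23, -0.26 and 0.28 on arrays 1 to 4, and the immunoproteasome and presentation genes had medians of -0.02, -0.16, -0.26 and 0.05. The interferon signalling factors differed from this, with medians of -0.13, -0.20, 0.018 and -0.18, above 0 on array 3 and below 0 on array 4. Dye orientation was split evenly, since T3 was the Cy5 sample on arrays 1 and 3 and the Cy3 sample on the others. On a single array, dye and pair cannot be told apart. The 5 genes below 0 on every array were averaged by orientation, T3 in Cy5 first. The means were -0.56 and -0.30 for Irf7, -0.42 and -0.34 for Psmb9 and -0.50 and -0.14 for Tap1. They were -0.24 and -0.22 for Gbp2, and -0.35 and -0.70 for Cxcl10, the reverse order. The part of dye in the differences between pairs was not tested.

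**Figure D3:**
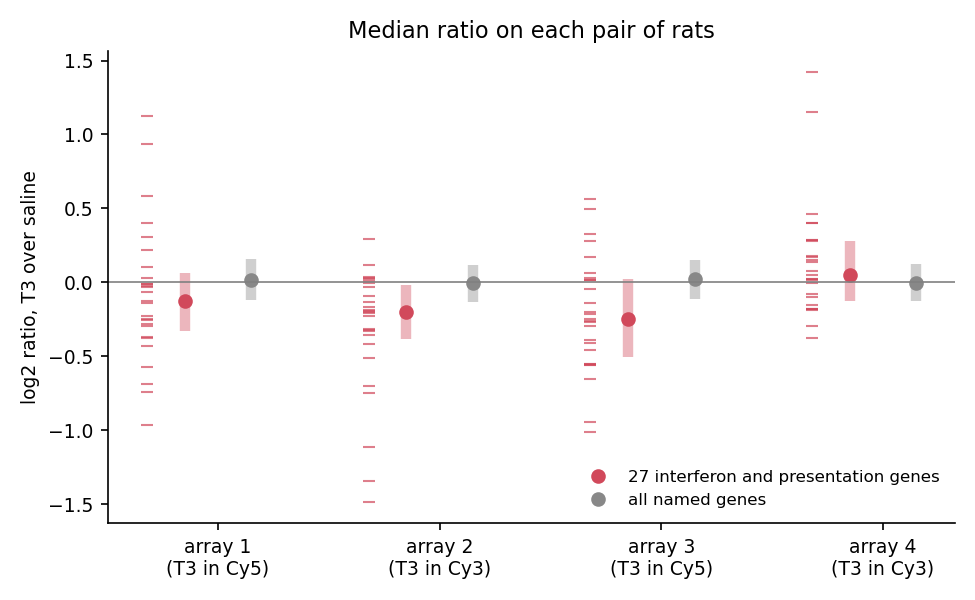
The vertical axis is the log2 ratio of T3 over saline for each array. Red dashes are the 27 genes, dots are medians, and shaded bars run from the lower to the upper quartile for the 27 genes (red) and for all named genes (grey). The red median lies below 0 on arrays 1 to 3, lowest at -0.251 on array 3, and at 0.049 on array 4.

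Further genes of the pathway, in 7 lists that hold 125 genes outside the 33, were measured for 73. Of these, 0 had an adjusted p under 0.05 in limma, while at an unadjusted p under 0.05 there were 3 higher and 2 lower, against 5.36% and 3.93% of all named genes. Among other interferon-induced effectors, 14 of 17 measured genes had a mean below 0, with a median of -0.082. On arrays 1 to 4 their medians were -0.076, -0.098, -0.091 and 0.12, so these genes too were below 0 on arrays 1 to 3 and above 0 on array 4. Ube2l6, the enzyme that hands Isg15 to its targets, was at -0.18 ± 0.053 and below 0 on 4 of 4 arrays (limma adjusted p = 0.545). Lgals3bp, a secreted galectin ligand, was at -0.24 ± 0.26.

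Among interferon receptors and signalling genes, 7 of 12 measured genes had a mean below 0, with a median of -0.012. Irf3, the factor that first turns on interferon genes, was at 0.19 ± 0.089 and above 0 on 4 of 4 arrays (limma adjusted p = 0.545). In the nucleic acid sensing list 4 of 7 were below 0, and Tlr3, an endosomal sensor of double-stranded RNA, was at -0.25 ± 0.24 (limma adjusted p = 0.581). The interferon-induced chemokines Ccl5 and Ccl2 were at -0.31 ± 0.74 and -0.018 ± 0.31. Ccl5 was at -1.33 on array 2, the array that also held the lowest Cxcl10 ratio.

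The other measured presentation genes had means on both sides of 0. Of all named genes, 48% had a mean below 0. In class I presentation, 4 of 12 measured genes were below 0, and Calr, the chaperone calreticulin, was at 0.20 ± 0.066 and above 0 on 4 of 4 arrays (limma adjusted p = 0.499). In class II presentation, 3 of 7 were below 0, and Ctsl, a lysosomal protease, was at 0.55 ± 0.20 and above 0 on 4 of 4 arrays (limma adjusted p = 0.103). Of the standard proteasome subunits, 8 of 16 were below 0, with a median of -0.0024.

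Markers of other cell types also differed between the pairs. Red blood cell markers (3 of 5 measured) had medians of 1.35, -3.25, 0.34 and 0.97 on arrays 1 to 4, with mean log2 levels from 9.68 to 11.67 in the T3 rats and from 10.06 to 13.25 in the saline rats. Perivascular macrophage and monocyte markers (4 of 9 measured) had medians of 0.37, -0.37, 0.12 and 0.33, with levels from 8.86 to 9.06 in the T3 rats and from 8.42 to 9.57 in the saline rats. Probes for Cd163, Ccr2, Ly6c, S100a8 and S100a9 in that list did not pass the background rule. Bst2, set beside these lists after its values were seen, had the same order of signs as both, below 0 on array 2 and above 0 on the other arrays. Psmb10 had this order of signs too, but its ratio on array 2, -0.0072, was close to 0. The part of these cells in the Bst2 ratios was not tested.

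Meningeal markers (8 of 8 measured) had medians of 0.27, -0.12, -0.31 and 0.57, with mean log2 levels from 11.37 to 11.99 in the T3 rats and from 11.00 to 12.22 in the saline rats. Ifi27, Ifitm3 and Cd74, picked after their values were seen, likewise had their highest ratios on arrays 1 and 4. So did other genes of the 27, among them Rsad2, Cxcl10, Psmb9 and Tapbp, whose means were below 0. Microglial markers (15 of 16 measured) had medians of 0.12, -0.12, -0.17 and 0.07, with levels from 10.38 to 10.74 in the T3 rats and from 10.27 to 10.92 in the saline rats. They were below 0 on arrays 2 and 3, as was the list of 27, but above 0 on array 1, where the list was below 0. The parts of meningeal tissue and of microglia in these ratios were not tested.

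Markers of astrocytes (11 of 12 measured) had medians of -0.017, -0.34, -0.16 and 0.085, with mean log2 levels from 12.84 to 13.05 in the T3 rats and from 12.80 to 13.20 in the saline rats. Oligodendrocyte markers (12 of 12 measured) had medians of -0.16, -0.32, -0.12 and 0.059, with levels from 11.95 to 12.48 in the T3 rats and from 12.26 to 12.61 in the saline rats. Both lists, like the 27 genes, were below 0 on arrays 1 to 3 and above 0 on array 4. Their part in the shift was not tested. Markers of hypothalamic nuclei had means below 0 for 13 of 13 measured genes, with medians of -0.063, -0.097, -0.44 and -0.029 on arrays 1 to 4, lowest on array 3 as for the 27 genes. Their mean log2 levels ran from 11.91 to 12.99 in the T3 rats and from 12.18 to 13.07 in the saline rats. Choroid plexus markers (5 of 8 measured) had medians of 0.10, -0.37, 0.52 and -0.13, with levels from 8.54 to 10.47 in the T3 rats and from 8.47 to 9.12 in the saline rats. Ttr and Sostdc1, chosen after their values were seen, stood at 3.53 and 2.70 on array 3. The part of unequal tissue content of the blocks in the shift was not tested. The 3 measured lymphocyte markers had medians of 0.37, -0.30, 0.097 and -0.023, and probes for Cd3e, Cd4, Cd8a and Ptprc did not pass the background rule. Neuronal markers (11 of 12 measured, 10 on array 4) had medians of -0.054, 0.065, 0.096 and -0.075. Endothelial and mural markers (11 of 15 measured) had medians of 0.13, 0.035, -0.028 and 0.015. Neither of these lists had the order of signs of the 27 genes.

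**Figure D4:**
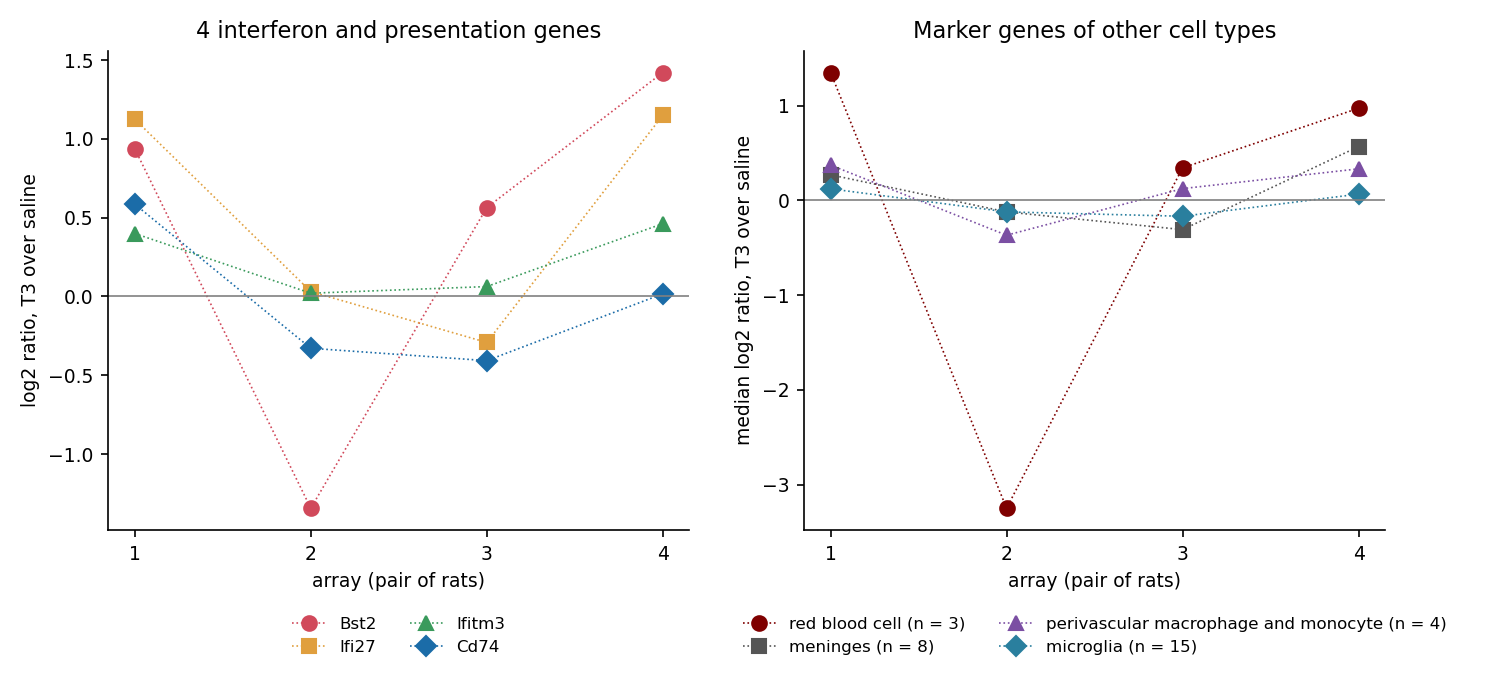
The left panel plots the log2 ratio of T3 over saline of Bst2, Ifi27, Ifitm3 and Cd74 on arrays 1 to 4, and the right panel plots the median log2 ratio of 4 marker lists. The genes at left were picked after their values were seen. Dotted lines only join values of 1 gene or list. Bst2 and the red blood cell median are both lowest on array 2, at -1.34 and -3.25.

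The signs of the means were set beside the presence of the ISRE core. Of the measured genes with a match, 11 of 17 had a mean below 0, with a median of -0.082, the value of Ifih1. Of those with a promoter and no match, 5 of 6 had a mean below 0, with a median of -0.039. The 4 measured genes without a promoter in the table, Usp18, Ifit2, Mx2 and Isg15, were all below 0. Irf7 and Ifitm3, whose means had opposite signs, each held 1 core, starting at positions -69 and -44 from the annotated start.

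The gamma-activated site (GAS), an element of the interferon gamma response written TTCNNNGAA on either strand, was found in 7 of the 27 promoters, against 8.87% of all promoters in the table. Irf1 and Irf9 held this site and no ISRE core. In the Bst2 promoter the site overlapped an ISRE core. Measured genes that held it included Irf1 with a mean of -0.030 and Bst2 with a mean of 0.39.

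**Figure D5:**
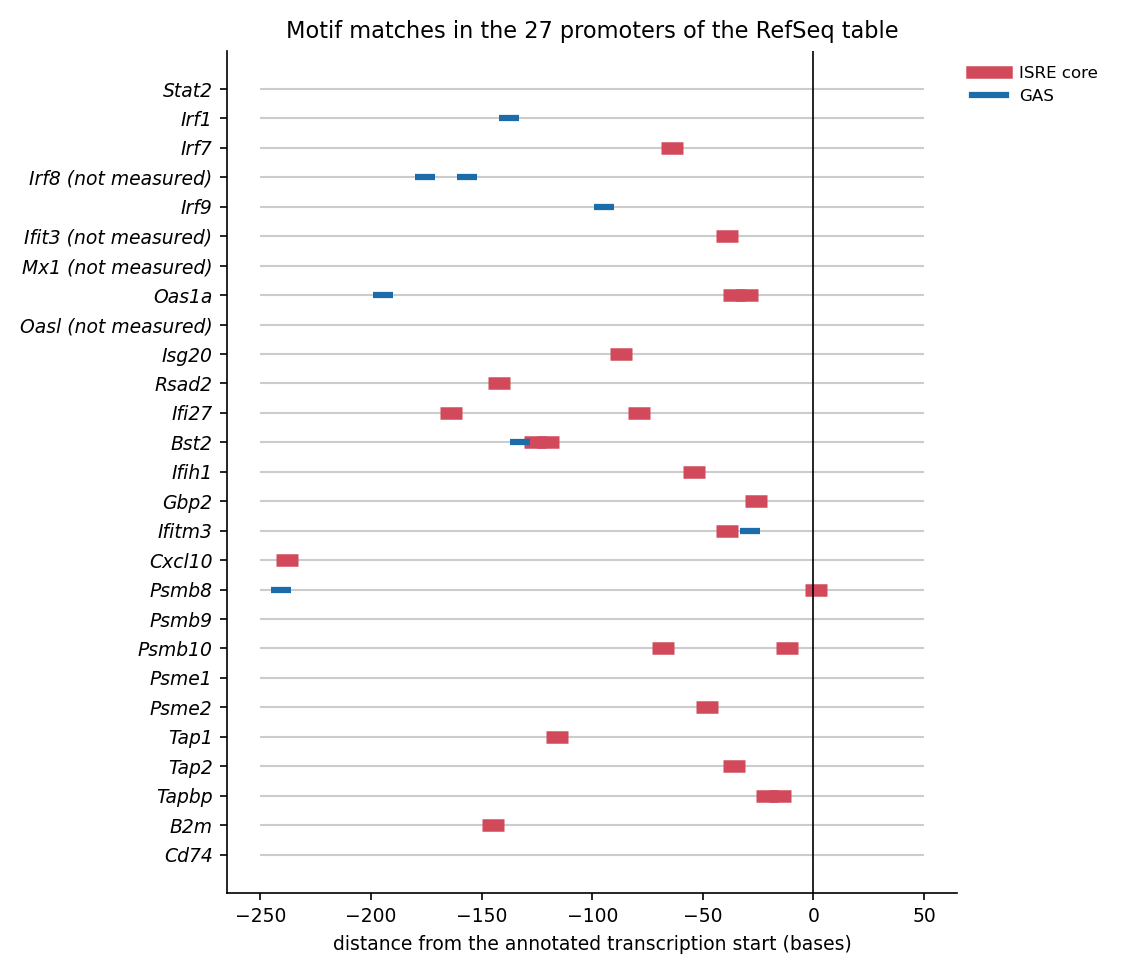
Each grey line is 1 promoter of the RefSeq table, and the horizontal axis is the distance in bases from the annotated start. Red blocks are ISRE cores and blue blocks GAS matches, and 18 of the 27 lines carry a red block.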

How the data were processed

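Total RNA of hypothalamic blocks was labelled with Cy3 or Cy5 after a 2-step amplification, per the labels' protocols, and the arrays were scanned and quantified with Agilent Feature Extraction, version 10.7.3.1 in the file headers. Per the file headers, each deposited scanner file gave intensity as the median pixel of every spot and of its surroundings, without normalization. It also gave processed intensity and a log10 ratio made by the scanner software (the log10 ratio was not used for results), per the file headers. A further table deposited by the authors, with 41105 rows, was read as log2 of T3 over saline. The submitters' processing notes name limma 3.18.9 as a tool. The normalization, centring and log base of that table are not given in the sources used here, and its columns had medians of 0.0026, -0.0024, 0.0021 and 0.0030. Over the kept probes its columns correlated with the ratios used here at r of 0.43, 0.43, 0.19 and 0.28 on arrays 1 to 4, across probes, which are not independent replicates. Array 3 correlated better with the column of array 1 (r of 0.26), and array 4 with that of array 2 (r of 0.31), than with its own.

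Background was corrected with normexp (offset 50) and each array normalized by loess in limma 3.58.1 under R 4.3.3, with control and outlier spots at weight 0. Outlier spots were left out, spots of a probe were averaged, and ratios were turned to T3 over saline. Probes well above background on at least 3 arrays in a channel were kept, 23148 of 41012. Accessions were matched without versions to RefSeq symbols (GRCr8, whose coordinates are used for the printed promoters alone), and 16964 probes had 1 symbol and 24048 had none or several. Levels per rat are log2 brightness after loess and quantile scaling of average brightness between arrays.

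Each array was taken as 1 pair of rats, and lmFit and eBayes (2-sided, 3 residual and 4.36 prior degrees of freedom) were adjusted by Benjamini-Hochberg over all kept probes, with a threshold of 0.05. Nothing in the labels says that the 2 rats of an array were otherwise related. The script was tested on simulated data. Slide and scan were single, so no batch could be tested. Ratios on every array are given for the 8 genes with the smallest p, the 4 with the widest range and all immunoproteasome and presentation genes. For other measured genes the mean, the SD and the sign count are given. The genes, their pathway lists and the markers were chosen with earlier results of these data known. Alternatives changed background correction, normalization, values, filter, dye term, probe and arrays.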

Additional observations from a re-analysis of the deposited data

Results flagged for a closer look

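In all, 31 measures over 4 arrays were checked for 1 array far from the rest, by the gap to the nearest array over the whole range, and 2 exceeded Dixon's 95% critical value. Chance alone gives about 1 in 20. For Psme1, array 3 was at -0.27 while the other arrays ran from -0.011 to 0.036, a gap of 0.845 of the range. The log2 brightness of Psme1 on array 3 was 11.55 for T3 and 11.81 for saline, against 12.62 to 12.98 on the other arrays. For the median of the 11 antiviral effectors, array 4 was at 0.28 while the other arrays ran from -0.26 to -0.23, a gap of 0.931 of the range.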

How the results depend on the processing

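Over all probes, the 23 calls became 10 with the authors' deposited values, 15 with a dye term, 42 with trend and robust in eBayes, 36 with a filter on all 4 arrays and 66 with no filter on dim probes. They became 0 with median centring (127 probes at an unadjusted limma p under 0.05) and 0 with the scanner software's processed signals (1597 such probes). Leaving out single arrays gave 0 to 68 calls: 68 without array 2 and 0 without array 1, 3 or 4 (1395, 1379 and 1580 probes at an unadjusted limma p under 0.05). No gene of the 27 passed the threshold in limma under these alternatives or without background subtraction, the fit with trend and robust having been added for single genes after seeing the data. Averaging the probes of a gene and leaving out arrays near background gave values with no test.

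Of the 27 genes, 13 had a mean below 0 with the authors' deposited values, and 17 to 19 with single arrays left out. With the authors' values the mean turned to 0.041 for Stat2, 0.048 for Irf1, 0.19 for Ifih1, 0.074 for Cxcl10, 0.13 for Psmb8, 0.033 for B2m and 0.32 for Cd74. Median centring turned Irf1 to 0.12 and Isg20 to -0.013, the processed signals turned Irf1 to 0.28 and Psmb8 to 0.021, and no background subtraction turned Psmb8 to 0.00054. An alternative chosen after seeing the data, leaving out arrays near background in both channels, turned Irf1 to 0.086. With single arrays left out the means ran from -0.098 to 0.0035 for Stat2, -0.11 to 0.086 for Irf1, -0.021 to 0.14 for Irf9, -0.26 to 0.064 for Oas1a and -0.13 to 0.14 for Isg20. They ran from -0.13 to 0.083 for Psmb8, -0.095 to 0.0060 for Psme1, -0.0076 to 0.15 for Tap2, -0.16 to 0.0032 for B2m and -0.24 to 0.091 for Cd74. The causes of these changes were not tested.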
